A study of Mus musculus with 25 samples.

Results

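Interferon-stimulated antiviral genes were examined in mouse spinal cord after contusion and in cultured astrocytes in which the transcription factor gene Zeb2 or its antisense long non-coding RNA gene Zeb2os was targeted. The set was given as a list of 34 symbols and found by gene name in the table of sorted cells, and the same identifiers were used in the other tables. The sorted table listed 33 of the 34 symbols among 43693 genes, and these 33 are called the members here. Mx2, the remaining symbol, was not analysed here.

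The sorted cells came from mice of the genotype GFAP-Cre-/+:R26-tdT-/+, in which a recombinase driven by a GFAP promoter switches on the red reporter tdTomato. The reporter therefore marks cells that make GFAP or once made it, and red cells were collected by flow sorting. The groups were sham mice, which had bone over the cord removed at T9 and were taken at 7 days (3 libraries), and mice at 7 days (3), 1 month (3) and 3 months (2) after a 60 kdyn contusion at T9. Sham mice were not followed to the later times, so those comparisons also differ in age and in time after surgery. Whole cord at the injury centre came from C57BL/6 mice at 3 months (3) and 1 month (3) after the same contusion. Each cord library pooled 3 mice. Astrocytes cultured from the brains of C57BL/6 pups, shaken to remove other glia and fibroblasts, received a Zeb2os knockdown lentivirus (2 libraries) or its control (2), or a Zeb2 knockdown lentivirus (2) or its control (2). All cultures were selected with puromycin at 1 µg/ml, from 24 hr after infection with the Zeb2os viruses and from 48 hr with the Zeb2 viruses. The knockdown libraries carry the genotype tags Zeb2os -/- and Zeb2 -/- although the labels describe viral knockdown. Nothing in the labels says that the culture libraries were separate cultures, so their p-values measure only the spread between these libraries, which may be technical.

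The sorted libraries held 15.7 to 50.2 M counts each and the tissue libraries 15.4 to 27.1 M. Depth was 45.6 to 158 M in cultures of the Zeb2os experiment and 29.0 to 65.4 M in those of the Zeb2 experiment. In the Zeb2os experiment the knockdown libraries had 45.6 and 50.9 M and the controls 78.8 and 158 M. In the Zeb2 experiment the knockdown had 42.8 and 29.0 M and the controls 65.4 and 50.2 M. Tissue libraries had 15.4 to 18.4 M at 1 month and 23.6 to 27.1 M at 3 months. Depth thus differed between the groups in tissue and cultures, and its part in the results was not tested. Levels are given as CPM, counts scaled to the size of the library, and a member is said to have risen or fallen only at an adjusted p under 0.05 in edgeR over all genes tested. The sorted libraries, although labelled astrocyte, held summed levels of 8 oligodendrocyte precursor markers of 6520 to 10590 CPM, against 560 to 737 CPM in tissue. Summed levels of 12 astrocyte markers were 4919 to 6507 CPM in sham. They were lower after injury, with 2542 to 3032 CPM at 7 days, 1534 to 1594 CPM at 1 month and 1324 to 1492 CPM at 3 months. All 16 microglia and macrophage markers had counts in the sorted libraries too.

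Interferons are secreted proteins that warn cells of infection. Type I interferons bind the receptor pair IFNAR1 and IFNAR2, kinases on the receptor activate factors that include STAT2, and STAT2 joins IRF9 in a complex that binds a DNA element, the interferon-stimulated response element. The genes it switches on include sensors of foreign RNA and DNA, enzymes that degrade viral RNA or block its translation, and the ubiquitin-like protein ISG15. In the central nervous system both microglia and astrocytes can make this response.

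The core of the response element was taken as GAAANNGAAA, where N is any base, and was searched on both strands of promoter windows from RefSeq (GRCm38.p6), which hold 250 bases before and 50 after a gene's start. Windows were present for 25 of the 33 members, and 14 of these 25 (56.0%) held a match. Among all genes with a window, 1079 of 27025 (3.99%) did. The other orientation of the core reads TTTCNNTTTC, and overlapping matches were counted separately. Bst2, Ddx60, Ifit1, Ifit3, Ifit3b and Oas1a had 2 matches and Ddx58, Eif2ak2, Ifih1, Oas3, Rsad2, Stat2 and Trim30a had 1 in a window. The windows of Irf7, Irf9, Ifit2, Oasl1, Oasl2, Xaf1, Cmpk2, Herc6, Ifi35, Ifi44 and Samd9l held none of these letters. The 5 windows below were chosen only among windows with a match. Bst2 and Trim30a rose at every time after injury, and Ddx60 and Ifit3b fell in the libraries labelled Zeb2os knockdown. Isg15, which encodes the ubiquitin-like modifier, was added although it neither rose nor fell in any comparison. Ifi44 also fell in the libraries labelled Zeb2os knockdown, but its window, without a match, is not shown. Zbp1 and Parp9 also rose at every time after injury and had no window. For Trim30a, which has 2 windows, the one with a match before the start is shown. Capitals mark the matches.
Bst2, chr8:71537423-71537722, minus strand: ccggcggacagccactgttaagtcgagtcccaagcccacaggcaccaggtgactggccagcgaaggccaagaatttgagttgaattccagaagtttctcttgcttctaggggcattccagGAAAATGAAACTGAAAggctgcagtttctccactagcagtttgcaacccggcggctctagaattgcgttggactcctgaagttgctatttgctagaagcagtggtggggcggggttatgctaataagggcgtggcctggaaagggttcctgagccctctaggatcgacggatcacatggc
Trim30a, chr7:104465144-104465443, minus strand: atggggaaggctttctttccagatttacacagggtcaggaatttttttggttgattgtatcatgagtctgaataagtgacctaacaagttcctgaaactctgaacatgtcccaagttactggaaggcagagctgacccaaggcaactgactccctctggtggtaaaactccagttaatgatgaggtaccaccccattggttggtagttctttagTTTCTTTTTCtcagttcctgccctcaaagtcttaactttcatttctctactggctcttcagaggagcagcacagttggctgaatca
Ddx60, chr8:61927837-61928136, plus strand: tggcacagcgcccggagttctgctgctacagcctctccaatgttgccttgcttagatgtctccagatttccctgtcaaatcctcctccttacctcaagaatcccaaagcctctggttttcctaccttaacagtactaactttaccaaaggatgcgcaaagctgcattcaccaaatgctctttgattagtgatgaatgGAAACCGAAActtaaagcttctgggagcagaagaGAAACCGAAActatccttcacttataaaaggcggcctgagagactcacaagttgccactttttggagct
Ifit3b, chr19:34607707-34608006, plus strand: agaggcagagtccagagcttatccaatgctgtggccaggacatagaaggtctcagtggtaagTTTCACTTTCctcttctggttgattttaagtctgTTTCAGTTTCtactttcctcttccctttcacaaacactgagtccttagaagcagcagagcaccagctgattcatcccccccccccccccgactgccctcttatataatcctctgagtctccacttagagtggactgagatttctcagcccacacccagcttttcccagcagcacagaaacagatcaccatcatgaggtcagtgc
Isg15, chr4:156200769-156201068, minus strand: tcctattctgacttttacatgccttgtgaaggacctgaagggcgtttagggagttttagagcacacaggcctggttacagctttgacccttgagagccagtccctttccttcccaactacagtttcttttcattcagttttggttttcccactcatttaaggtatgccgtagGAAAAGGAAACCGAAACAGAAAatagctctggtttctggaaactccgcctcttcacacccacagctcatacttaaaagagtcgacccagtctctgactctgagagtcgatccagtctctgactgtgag
The matches began 130 and 124 bases before the start in Bst2, 36 in Trim30a, 53 and 19 in Ddx60, 188 and 154 in Ifit3b, and 78, 72 and 66 in Isg15. Isg15 thus had 3 overlapping matches, the largest number in any member's window. These are matches of letters, and binding was not measured.

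In sorted cells some members rose after injury and none fell, and most of those that passed the test did so at 3 months. Against sham, 7 of 33 members rose at 7 days, 5 at 1 month and 12 at 3 months, where 9.87%, 6.23% and 6.78% of all 24286 tested genes rose. The members' shares were 21.2%, 15.2% and 36.4%. None fell at any of these times by edgeR (0 at an unadjusted p under 0.05, and 0 by DESeq2), where 8.41%, 5.83% and 4.93% of all genes fell. The median log2 fold change of the members was 0.94 at 7 days, 0.61 at 1 month and 1.44 at 3 months, set against -0.06, -0.02 and -0.10 over all genes tested. All 3 comparisons use the same sham libraries, so they are not independent of each other. A bulk library cannot tell fewer or more cells that express a gene from less or more of its RNA per cell.

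**Figure D1:**
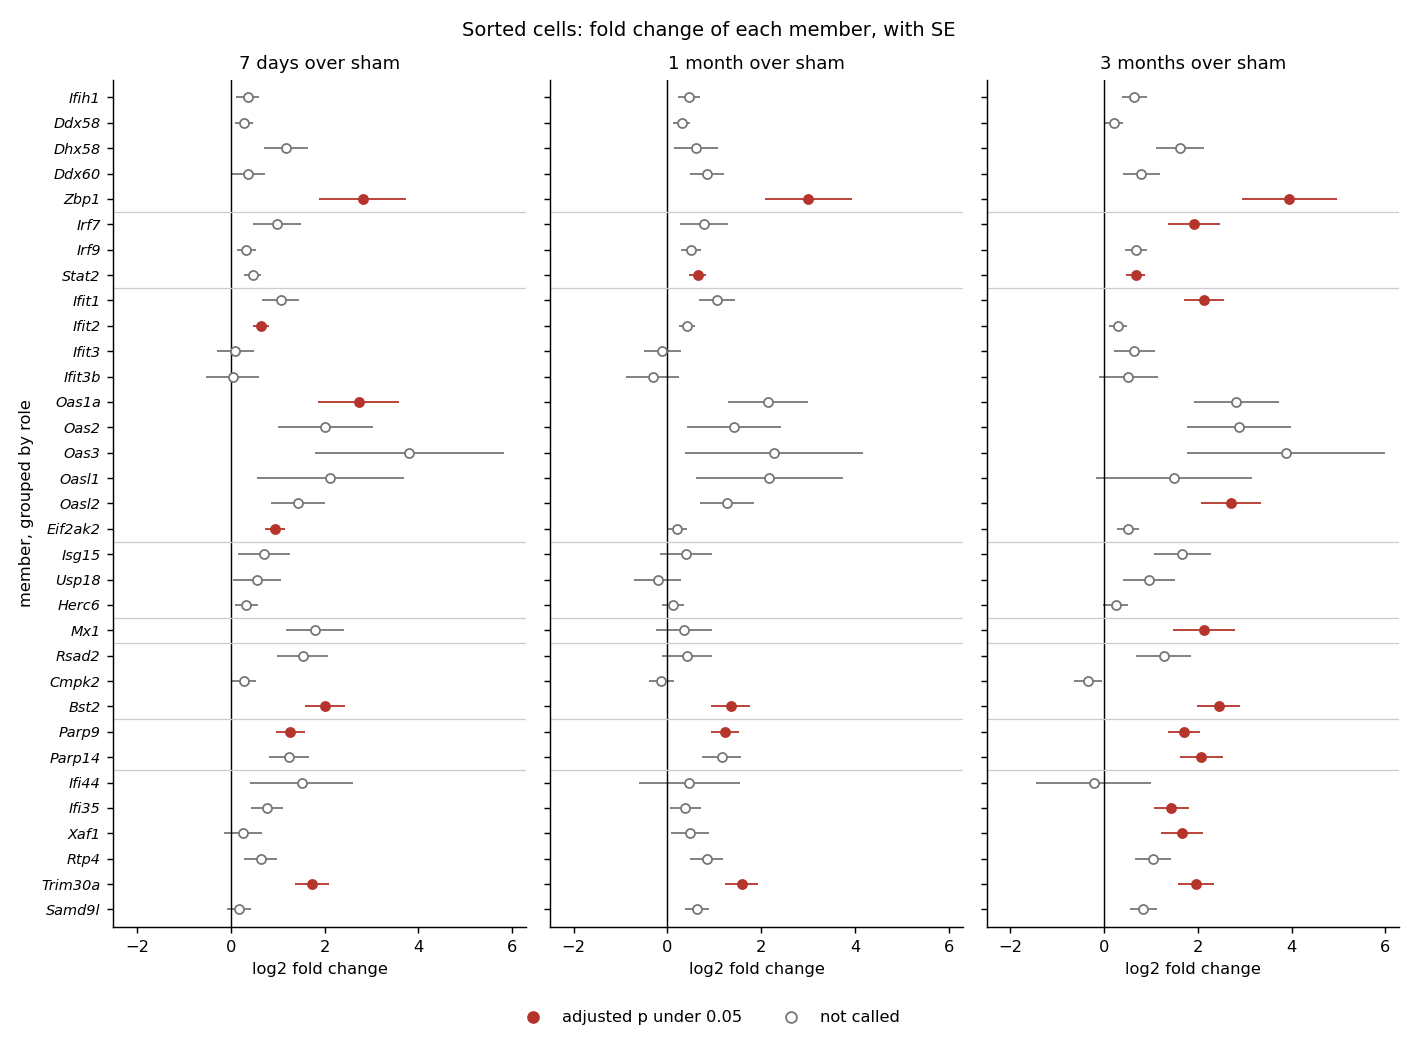
Log2 fold change of each of the 33 members in sorted cells at 7 days, 1 month and 3 months over sham, with its standard error, from 2 or 3 libraries a group. Rows are grouped by role from sensors at the top to other effectors at the bottom, filled red points passed an adjusted p of 0.05, and 7, 5 and 12 points do so in the 3 panels, all to the right of 0.

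The ranges of the individual libraries were compared as well. In 17 of 33 members every 7-day library lay above every sham library, against 18.9% of all genes. The count was 12 at 1 month, against 14.7%, and 25 at 3 months, against 17.0%. In the other direction, no member at 7 days or 1 month and 1 at 3 months, Cmpk2, had every injured library below every sham library, where 15.9%, 12.7% and 17.2% of all genes did. Summed over the 33 members, sham libraries had 335 to 454 CPM, 7-day libraries 620 to 709, 1-month libraries 569 to 633 and 3-month libraries 797 and 890.

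Among the sensors, Zbp1, whose protein binds left-handed nucleic acid and can trigger cell death, stood out. It was measured at 1.65, 0.168 and 0 CPM in the sham libraries, 2.68, 7.12 and 3.67 at 7 days, 2.46, 6.495 and 6.47 at 1 month and 6.83 and 12.9 at 3 months. Every injured library lay above every sham library, and sham replicate 3 had no count. The log2 fold change over sham was 2.81 ± 0.93 (SE) at 7 days (edgeR adjusted p = 0.0466), 3.01 ± 0.94 at 1 month (adjusted p = 0.0476) and 3.95 ± 1.01 at 3 months (adjusted p = 0.0176). Single libraries decided these calls. Those at 7 days and 1 month were lost without sham replicate 2 or 3 or without any 1 injured library of that time, and the call at 3 months without 3-month replicate 3. Over all alternatives run the adjusted p of Zbp1 reached 0.184 at 7 days, 0.172 at 1 month and 0.157 at 3 months, and a value given below for a lost call is likewise the highest over all alternatives.

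The RNA helicase genes were not called at any time. Ifih1, which encodes the sensor MDA5, was at 18.2, 11.6 and 17.9 CPM in sham, 21.03, 22.7 and 17.9 at 7 days, 19.4, 19.8 and 26.6 at 1 month and 26.9 and 23 at 3 months. Ddx58, which encodes RIG-I, was at 26.6, 27.1 and 34.02 CPM in sham, 32.97, 36.7 and 36.7 at 7 days, 38.5, 38.6 and 31.1 at 1 month and 32.5 and 34.8 at 3 months. Every 1-month and 3-month library lay above sham for Ifih1, the groups overlapped for Ddx58, and their log2 fold changes over sham lay between 0.20 and 0.65. Dhx58, which encodes the related helicase LGP2, was at 2.99, 3.02 and 2.42 CPM in sham, 5.95, 6.57 and 6.69 at 7 days, 5.75, 2.85 and 4.301 at 1 month and 4.95 and 12.5 at 3 months. All its 7-day and 3-month libraries lay above sham. Its log2 fold change at 3 months, 1.62 ± 0.51, missed the threshold (adjusted p = 0.0521), and a partner transcript, Dhx58os, overlaps its exons on the opposite strand. Ddx60, a helicase described as a helper of RIG-I, had log2 fold changes of 0.36 ± 0.36, 0.84 ± 0.36 and 0.80 ± 0.40 over sham at 7 days, 1 month and 3 months and was not called.

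Of the transcription factors, Irf7, the regulator that amplifies type I interferon production, rose at 3 months. Its level was 12.6, 1.68 and 4.42 CPM in sham, 10.1, 12.7 and 14.4 at 7 days, 6.601, 13.2 and 12.4 at 1 month and 24.3 and 22.9 at 3 months. Sham replicate 1 overlapped the 7-day and 1-month ranges, and both 3-month libraries lay above all others. The log2 fold change over sham at 3 months was 1.92 ± 0.56 (adjusted p = 0.0355), and the call was lost without sham replicate 2, sham replicate 3 or either 3-month library (up to 0.174). Stat2 was at 30.7, 35.7 and 27.4 CPM in sham, 42.9, 43.8 and 42.9 at 7 days, 58.5, 41.7 and 47.4 at 1 month and 48.8 and 51.1 at 3 months. All injured libraries lay above sham, with log2 fold changes of 0.47 ± 0.18 at 7 days (adjusted p = 0.0912), 0.65 ± 0.18 at 1 month (adjusted p = 0.026) and 0.67 ± 0.20 at 3 months (adjusted p = 0.037). The Stat2 call at 1 month was lost without sham replicate 3 or 1-month replicate 1 or 3 (up to 0.143), and that at 3 months without sham replicate 3 or either 3-month library (up to 0.24). Irf9, which encodes the DNA-binding partner of STAT2, was at 40.95, 26.7 and 45.9 CPM in sham, 44.7, 47.5 and 50.6 at 7 days, 45.8, 64.7 and 50.7 at 1 month and 61.7 and 59.6 at 3 months, and was not called.

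The effectors that act on RNA were called at different times. Eif2ak2 encodes PKR, the kinase that stops translation on sensing double-stranded RNA, and Ifit2 encodes an RNA-binding protein of the IFIT family. Eif2ak2 was at 21.1, 23.02 and 19.1 CPM in sham, 46.01, 43.7 and 31.7 at 7 days, 23.3, 22.99 and 26.9 at 1 month and 25.8 and 34.2 at 3 months. Ifit2 was at 38.5, 54.8 and 44.8 CPM in sham, 73.9, 72.7 and 68.98 at 7 days, 63.2, 62.9 and 58.7 at 1 month and 51.97 and 61.4 at 3 months. Both had their highest group mean at 7 days, where their log2 fold changes were 0.94 ± 0.21 (adjusted p = 0.00484) and 0.64 ± 0.17 (adjusted p = 0.0124), and neither was called later. Both 7-day calls held in all 10 alternatives run. Oas1a, an oligoadenylate synthetase that responds to double-stranded RNA, was at 2.56, 0.604 and 0 CPM in sham, 4.06, 10.3 and 7.29 at 7 days, 4.12, 4.34 and 6.005 at 1 month and 9.32 and 6.09 at 3 months. It rose at 7 days (log2 fold change 2.73 ± 0.86, adjusted p = 0.0372). Leaving out sham replicate 2 or 7-day replicate 2 or 3 removed that call (up to 0.142). The log2 fold change of Oas1a at 3 months was 2.82 ± 0.91 (adjusted p = 0.0577).

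Ifit1 and Oasl2 rose at 3 months alone among the 3 comparisons with sham. Ifit1, whose protein holds viral RNA lacking a host cap, was at 10.2, 3.12 and 9.87 CPM in sham, 15.3, 11.03 and 22.1 at 7 days, 16.1, 18.4 and 13.4 at 1 month and 27.1 and 40.4 at 3 months. Oasl2, a synthetase-like protein, was at 16.4, 2.45 and 1.63 CPM in sham, 13.5, 24.7 and 17.96 at 7 days, 15.98, 19.1 and 15.1 at 1 month and 38.9 and 51.2 at 3 months. In both genes the 3-month libraries lay above all others, and for Oasl2 sham replicate 1 lay within the 7-day and 1-month ranges. The log2 fold changes at 3 months were 2.13 ± 0.42 for Ifit1 (adjusted p = 0.00359) and 2.70 ± 0.64 for Oasl2 (adjusted p = 0.0114). Without 3-month replicate 3 neither was called (up to 0.0514 for Ifit1 and 0.109 for Oasl2). Ifit3 and Ifit3b, near-identical copies between which reads may be split, were not called at any time, with log2 fold changes between -0.31 and 0.65. Oas2, Oas3 and Oasl1 were at 5.14 CPM or below in every sorted library and were not called.

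**Figure D2:**
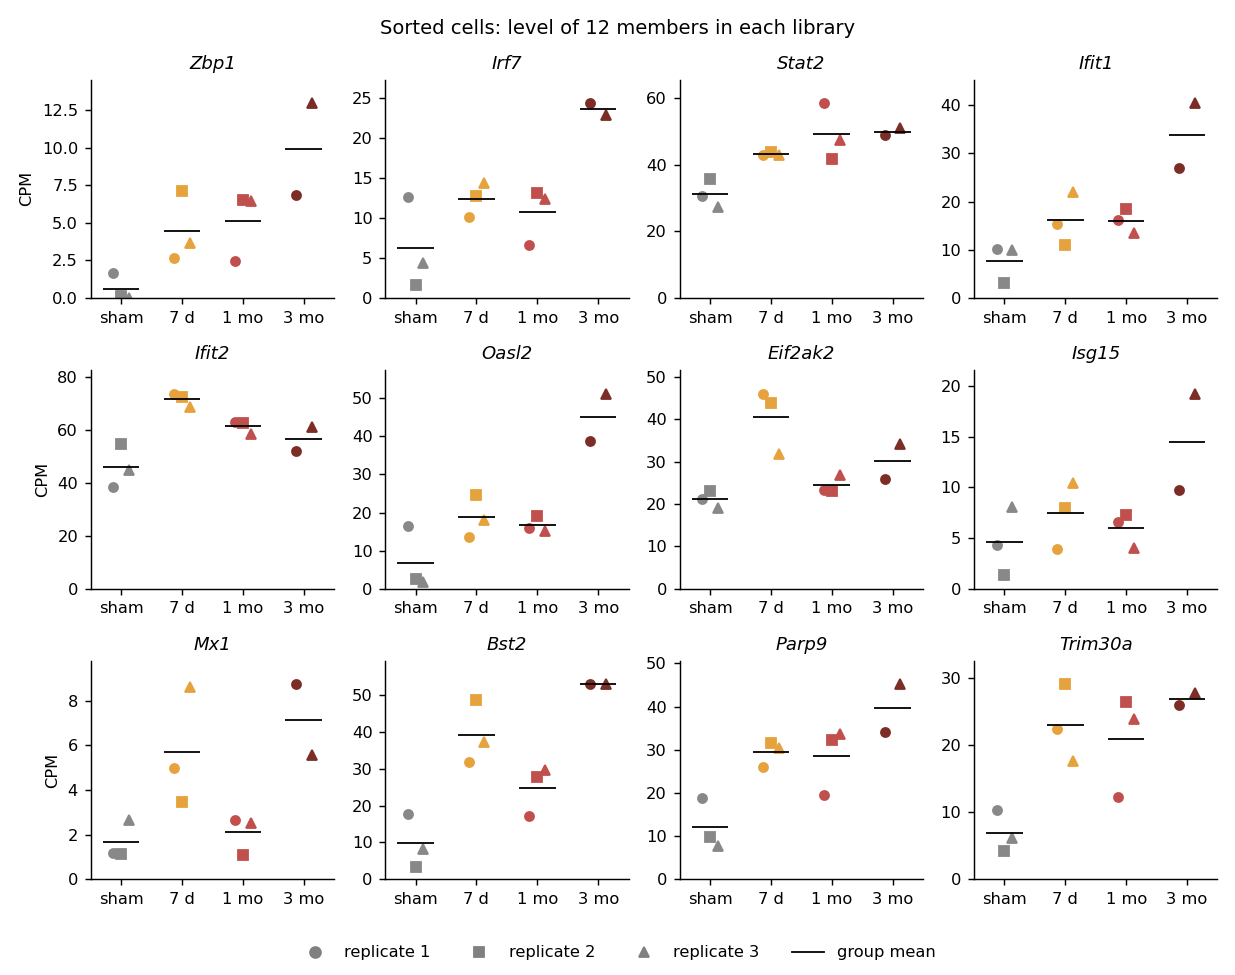
Level in CPM of 12 members in each sorted library of sham, 7 days, 1 month and 3 months, where symbols give the replicate number and bars the group mean. Eif2ak2 and Ifit2 have their highest mean at 7 days, while both 3-month libraries lie above all other libraries for Irf7, Ifit1, Oasl2, Bst2 and Parp9.

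The members of the ISG15 system were not called. Isg15 was at 4.304, 1.38 and 8.05 CPM in sham, 3.905, 7.97 and 10.5 at 7 days, 6.55, 7.27 and 4.01 at 1 month and 9.76 and 19.2 at 3 months, so the 7-day and 1-month libraries overlapped sham. Its log2 fold change at 3 months was 1.67 ± 0.61 (adjusted p = 0.0936). Usp18, the protease that takes ISG15 off its targets and restrains the interferon receptor, was at 6.08, 2.45 and 10.4 CPM in sham, 7.4, 9.501 and 10.9 at 7 days, 3.47, 7.29 and 5.51 at 1 month and 6.78 and 17.7 at 3 months. Herc6, which attaches ISG15 in mouse, was at 17.6, 21.1 and 13.4 CPM in sham, 21.6, 23.98 and 20.2 at 7 days, 19.4, 18.7 and 18.9 at 1 month and 24.8 and 16.5 at 3 months. For both genes every injured group overlapped sham. Uba7, outside the list and named here after its values were seen, encodes the enzyme that activates ISG15. It rose at 7 days, 1 month and 3 months (log2 fold changes 1.03 ± 0.23, 1.63 ± 0.23 and 2.68 ± 0.26, adjusted p = 0.00496, 3.0e-04 and 6.4e-06). The other ISG15 conjugation genes listed with it differed less. Ube2l6 averaged 9.11 CPM in sham and 17.3 CPM at 3 months, and Trim25 averaged 59.3 and 73.8 CPM.

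Bst2, Trim30a and Parp9, with Zbp1, were the 4 members called at all 3 times. Bst2 encodes tetherin, a membrane protein that holds budding virions at the cell surface. It was at 17.6, 3.22 and 8.29 CPM in sham, 31.9, 48.6 and 37.2 at 7 days, 17.1, 27.6 and 29.6 at 1 month and 52.9 and 52.99 at 3 months. All 7-day and 3-month libraries lay above sham, while 1-month replicate 1 lay just below sham replicate 1. The log2 fold changes were 2.01 ± 0.43 (adjusted p = 0.00333), 1.35 ± 0.42 (adjusted p = 0.0477) and 2.44 ± 0.46 (adjusted p = 0.00229) at 7 days, 1 month and 3 months. Per exonic kilobase Bst2 averaged 10.7 CPM per kb in sham, where Ifit3 (16.4) and Ifit2 (11.7) were above it. It was the highest member at 7 days (43.4), 1 month (27.4) and 3 months (58.6). Its promoter window, printed above, holds 2 overlapping matches to the response element core.

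Trim30a, a TRIM family protein described as a brake on Toll-like receptor signalling, was at 10.3, 4.19 and 6.17 CPM in sham, 22.4, 29.1 and 17.6 at 7 days, 12.2, 26.4 and 23.9 at 1 month and 25.97 and 27.8 at 3 months. Every injured library lay above every sham library, and the log2 fold changes were 1.73 ± 0.36, 1.59 ± 0.35 and 1.96 ± 0.38 at the 3 times in order (adjusted p = 0.00264, 0.00729 and 0.00312). Trim30a was the member whose calls held at all 3 times in every alternative run. Parp9, an ADP-ribosyltransferase family member that works with the ubiquitin ligase DTX3L, was at 18.7, 9.83 and 7.75 CPM in sham, 26.1, 31.6 and 30.5 at 7 days, 19.5, 32.2 and 33.8 at 1 month and 34.1 and 45.2 at 3 months. Its log2 fold changes were 1.27 ± 0.31, 1.23 ± 0.31 and 1.70 ± 0.33 (adjusted p = 0.00808, 0.0149 and 0.00318), and exons of Dtx3l overlap those of Parp9 on the opposite strand. At 1 month the Bst2 call was lost without sham replicate 2 or 3 or 1-month replicate 2 or 3 (up to 0.167), and the Parp9 call without sham replicate 2 or 1-month replicate 2 or 3 (up to 0.0763).

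The other rises were at 3 months. Parp14, a relative of Parp9, was at 71.3 and 81.3 CPM at 3 months, against 18.1, 4.496 and 32.1 CPM in sham (log2 fold change 2.07 ± 0.46, adjusted p = 0.00757). Mx1, a GTPase that blocks influenza and is disabled in most laboratory mouse strains, was at 8.74 and 5.57 CPM at 3 months, against 1.19, 1.11 and 2.66 CPM in sham (2.13 ± 0.66, adjusted p = 0.0474). Xaf1, named for its binding to the apoptosis inhibitor XIAP, was at 15.7 and 24.2 CPM at 3 months, against 7.45, 2.65 and 8.96 CPM in sham (1.66 ± 0.44, adjusted p = 0.023). Every 3-month library lay above every sham library in these genes. Ifi35, an interferon-induced leucine zipper protein (1.44 ± 0.37, adjusted p = 0.0185), completed the 12. Without 3-month replicate 3, 4 of the 12 calls were made, where 3.22% of all genes rose, and without sham replicate 1 the number of 7-day calls was 11 in place of 7, where 13.8% did. The 5 calls at 1 month became 8 without sham replicate 1 and 3 without sham replicate 2 or 3. They became 3, 2 and 1 without 1-month replicates 1, 2 and 3. In these 1-month fits 3.91% to 8.94% of all genes rose. Mx1 lost its call without sham replicate 1 or 2 or either 3-month library (up to 0.22), and Ifi35 and Xaf1 theirs without 3-month replicate 3 (up to 0.283 and 0.266). With the 2 groups fitted alone the calls of Parp14 (adjusted p = 0.0976), Mx1, Ifi35, Irf7, Zbp1, Oasl2, Stat2 and Xaf1 at 3 months were lost, as were those of Zbp1 and Oas1a at 7 days and of Bst2, Parp9, Stat2 and Zbp1 at 1 month. With no filter the 3-month call of Stat2 was lost. With the replicate number fitted as a block, the 3-month calls of Mx1 and Stat2 and the 7-day and 1-month calls of Zbp1 were lost. Rsad2, which encodes the antiviral enzyme viperin, Cmpk2, its neighbour and nucleotide kinase partner, Ifi44, Rtp4 and Samd9l were not called at any time, with log2 fold changes over sham between -0.34 and 1.54.

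Between the injured times no member was called. At 3 months against 1 month edgeR called 0 of 33 in either direction (6 higher and 0 lower at an unadjusted p under 0.05, against 5.45% of all genes higher, and 0 by DESeq2), and 0.103% of all genes rose and 0.284% fell. The median log2 fold change of the members was 0.75, against 0.00 over all genes, and both 3-month libraries lay above every 1-month library in 16 of 33 members, against 15.9% of all genes. At 3 months against 7 days 0 were called (3 higher and 0 lower unadjusted, against 8.75% of all genes higher, and 1 higher by DESeq2, against 6.19%), where 2.53% of all genes rose and 3.52% fell. At 1 month against 7 days 0 were called (0 higher and 2 lower unadjusted, against 8.24% of all genes lower, and 1 lower by DESeq2, against 5.1%), where 1.52% rose and 1.09% fell. The higher values at 3 months than at 1 month therefore did not pass the test, and missing the threshold does not show that the times were alike.

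The wider pathway was described with 106 other genes. Of the 86 tested in sorted cells, 29 rose and 2 fell at 7 days, 22 rose and 2 fell at 1 month, and 34 rose and 1 fell at 3 months against sham. Of all genes tested, 9.87%, 6.23% and 6.78% rose and 8.41%, 5.83% and 4.93% fell at these times in order. The largest rise at 1 and 3 months was that of Cxcl10, a chemokine that draws T cells, at 3.62, 0.973 and 6.597 CPM in sham, 25.3, 38.6 and 31.6 at 7 days, 21.7, 36.7 and 41.9 at 1 month and 60.1 and 91.8 at 3 months. No injured library overlapped sham, and its log2 fold changes were 3.13 ± 0.47, 3.20 ± 0.48 and 4.39 ± 0.52 (adjusted p = 2.6e-04, 3.9e-04 and 4.1e-05). Next by log2 fold change at 3 months came Ifi204, which encodes a DNA-binding protein (4.29 ± 1.04), Epsti1 (4.23 ± 0.94), Lgals3bp, which encodes a secreted glycoprotein (3.94 ± 0.42), Sp100, a nuclear body protein (3.84 ± 0.74), and Slfn2, a schlafen family gene (3.81 ± 0.45). At 7 days the largest rises were those of Ifi203 (3.57 ± 1.11) and Ifi204 (3.40 ± 0.97). Tlr7, the endosomal receptor for single-stranded RNA, rose by 2.93 ± 0.46 on the log2 scale at 7 days. Those that fell, named here after their values were seen, were Tlr3, the receptor for double-stranded RNA, at all 3 times (-1.47 ± 0.22, -1.53 ± 0.22 and -1.47 ± 0.25), the transcription factor gene Irf3 at 7 days and Ifitm3, which encodes a membrane protein that blocks viral entry, at 1 month. Between injured times, 7 of these genes rose and 2 fell at 3 months against 7 days, the largest rise being that of Lgals3bp (1.99 on the log2 scale). Over all genes, 2.53% rose and 3.52% fell in that comparison.

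Receptor genes rose at the same times. Ifnar2, which with Ifnar1 forms the type I receptor, was at 28.6, 21.4 and 43.3 CPM in sham, 54.0, 59.4 and 63.95 at 7 days, 43.9, 54.01 and 59.2 at 1 month and 70.1 and 84.8 at 3 months. Every injured library lay above every sham library, with Ifnar2 log2 fold changes of 0.93 ± 0.23, 0.75 ± 0.23 and 1.32 ± 0.25 (adjusted p = 0.00875, 0.0404 and 0.00232). Over all genes, 9.87%, 6.23% and 6.78% rose at 7 days, 1 month and 3 months. Of the 6 receptor genes, 4 rose at 7 days, 3 at 1 month and 5 at 3 months. The largest of these rises was that of Ifngr2, a chain of the type II interferon receptor, at 2.70 ± 0.30 at 3 months.

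The interferon genes themselves had few counts. Of 21 ligand genes, 7 had any count in the 11 sorted libraries, 77 counts in all, of which Ifng had 39 in 4 libraries. In tissue 6 had counts, 22 in all. Cultures of the Zeb2os experiment had 156 counts over 7 ligand genes, 105 of them on Ifnz, and those of the Zeb2 experiment 59 over 4, of which 51 on Ifnz. Ifnb1, which encodes interferon beta, had 2 counts in sorted libraries and 2 in tissue, 12 in the first culture experiment and 1 in the second. Most ligand genes were thus not detectable at this depth, and no difference between groups was tested for them.

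Markers of microglia and macrophages moved with the members. Of 16 such markers, 13 rose at 7 days, 13 at 1 month and 14 at 3 months against sham, and none of the 16 was at 0. Over all genes, 9.87%, 6.23% and 6.78% rose at these times. Summed over these markers, sham libraries had 450 to 1944 CPM, 7-day libraries 5298 to 8043, 1-month libraries 4268 to 6721 and 3-month libraries 10790 and 14300, with Lyz2 and C1qa the most abundant at 3 months (3450 and 1956 CPM on average). Among the sham libraries, replicate 1 had the highest summed marker level, at 1944 CPM, and replicates 2 and 3 had 535 and 450 CPM. Of the members with sham values printed above, Zbp1, Ifih1, Irf7, Oas1a, Ifit1, Oasl2, Bst2, Trim30a and Parp9 were highest in sham replicate 1. Dhx58, Stat2, Eif2ak2, Ifit2 and Herc6 were highest in sham replicate 2, and Ddx58, Irf9, Isg15, Usp18, Parp14, Mx1 and Xaf1 in sham replicate 3. The summed level of the members was 454, 335 and 446 CPM in the 3 sham libraries in order. Endothelial markers rose too (10, 6 and 9 of 10 at the 3 times), and their sums were 59.3 to 214 CPM in sham libraries, 543 to 647 in 7-day libraries, 290 to 320 in 1-month libraries and 471 and 674 in 3-month libraries, and so did 5, 5 and 4 of 10 fibroblast and mural markers. Markers of plasmacytoid dendritic cells, which make much interferon, summed to 5.08 to 40.5 CPM in sham libraries and 7.67 to 11.7 CPM in 7-day libraries. Their sums were 13.0 to 35.3 CPM in 1-month libraries and 49.95 and 62.9 CPM in 3-month libraries. The part of any of these cells in the members' rise was not tested.

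**Figure D3:**
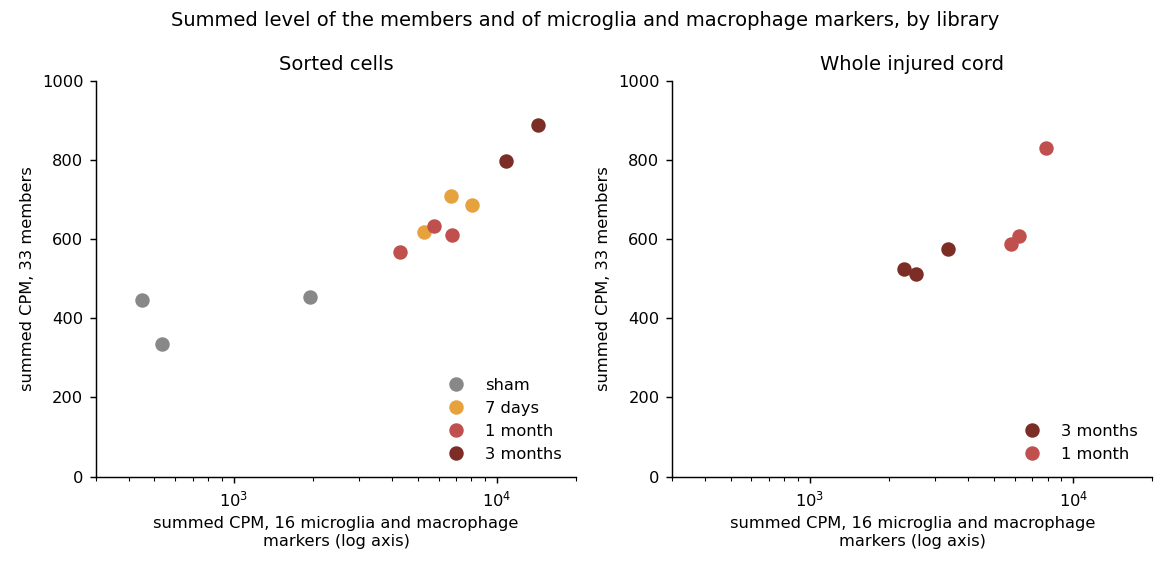
Summed CPM of the 33 members (vertical axis) against summed CPM of 16 microglia and macrophage markers (horizontal, log axis) in each library of sorted cells (left) and of whole injured cord (right). In sorted cells the sham libraries lie lowest and the 3-month libraries, at 797 and 890 CPM, highest on both axes, whereas in whole cord the 3-month libraries lie lower than the 1-month libraries on both.

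In whole injured cord most members had lower values at 3 months than at 1 month, and few passed the test. Of 33 members 4 fell (12.1%), where 8.01% of all 19652 tested genes did, and 1 rose, where 6.69% of all genes did. Over the members the median log2 fold change was -0.39, against -0.00 over all genes, and 29 of 33 values were negative. In 12 of 33 members every 3-month library lay below every 1-month library, against 19.8% of all genes. The summed level was 513 to 576 CPM at 3 months, against 589 to 831 CPM at 1 month. No uninjured tissue was analysed here, so these values say nothing of the level before injury.

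Bst2 had the largest log2 fold change among the called members, at 28.4, 21.6 and 22.6 CPM at 3 months, against 41.7, 57.9 and 39.8 CPM at 1 month. The groups did not overlap, and the log2 fold change was -0.94 ± 0.17 (adjusted p = 0.0139). Ifit1 was at 11.3, 13.6 and 13.2 CPM at 3 months, against 18.3, 25.6 and 16.5 CPM at 1 month (-0.66 ± 0.17, adjusted p = 0.042). The copies Ifit3 (-0.53 ± 0.14, adjusted p = 0.0424) and Ifit3b (-0.58 ± 0.13, adjusted p = 0.0244) fell together, at 41.5 to 43.5 CPM at 3 months against 50.3 to 75.8 CPM at 1 month for Ifit3. For all 4 genes 1-month replicate 2 was the highest library. Cmpk2, the nucleotide kinase, rose, at 34.5, 36.95 and 37.4 CPM at 3 months, against 28.9, 30.2 and 27.7 CPM at 1 month (0.33 ± 0.07, adjusted p = 0.0239). Its neighbour Rsad2 was not called (0.36 ± 0.25, adjusted p = 0.374).

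The sensors, transcription factors and ISG15 genes did not pass the test in tissue. Irf7 was at 17.6, 16.2 and 12.7 CPM at 3 months, against 16.8, 30.8 and 16.5 CPM at 1 month, and the groups overlapped. Irf9 was at 32.7, 28.1 and 29.1 CPM at 3 months, against 34.7, 45.8 and 37.7 CPM at 1 month, without overlap (-0.40 ± 0.11, adjusted p = 0.0569). Stat2 was at 53.97, 45.1 and 44.3 CPM at 3 months, against 46.3, 60.8 and 49.95 CPM at 1 month. Isg15 was at 9.43, 8.75 and 9.97 CPM at 3 months, against 11.5, 15.4 and 10.1 CPM at 1 month, again without overlap (-0.39 ± 0.17, adjusted p = 0.154). Usp18 and Herc6 had log2 fold changes of -0.54 ± 0.27 and -0.33 ± 0.15. Of the sensors, Zbp1 (-0.32 ± 0.29), Dhx58 (-0.50 ± 0.22), Ddx60 (-0.46 ± 0.23), Ifih1 (-0.35 ± 0.17) and Ddx58 (-0.16 ± 0.14) were all lower without being called. Oas3 had the largest difference of any member and was not called, at 11.5, 2.59 and 4.003 CPM at 3 months, against 1.39, 3.05 and 0.714 CPM at 1 month, where 3-month replicate 1 stood far above the rest and the groups overlapped. It is given here because of its value.

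**Figure D4:**
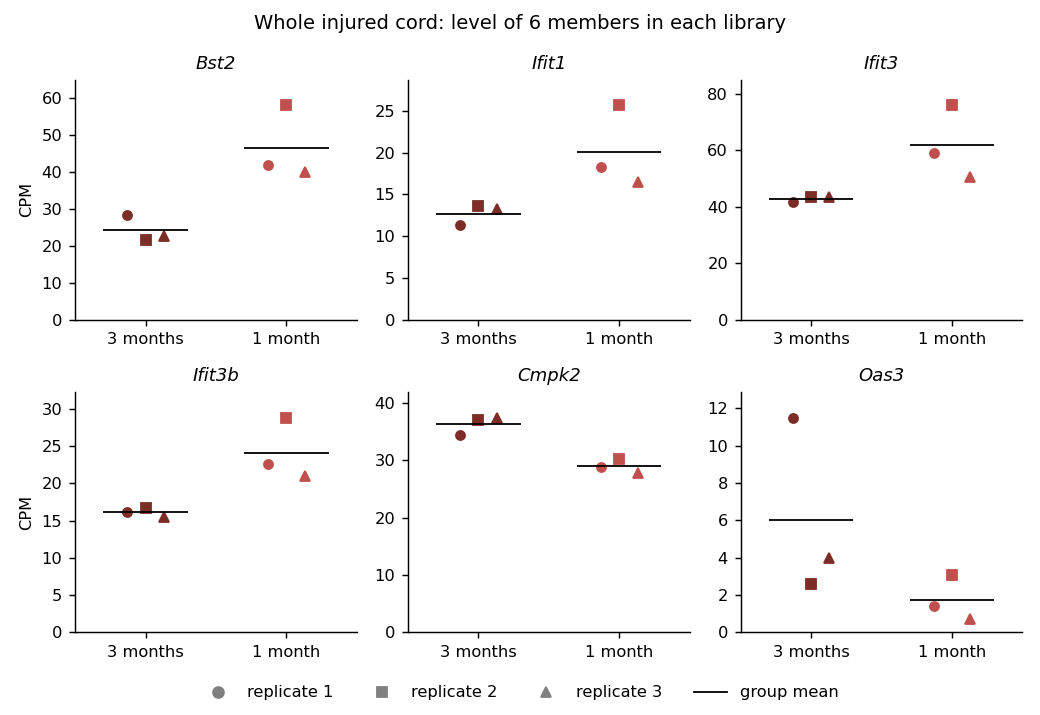
Level in CPM of 6 members in each library of whole injured cord at 3 months (left) and 1 month (right), where symbols give the replicate number and bars the group mean. Bst2, Ifit1, Ifit3 and Ifit3b lie lower in all 3 libraries at 3 months, Cmpk2 lies higher, and Oas3 at 3 months is spread from 2.59 to 11.5 CPM.

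These tissue calls depend on single libraries. Counted without single libraries, the 4 falls became 0 without 1-month replicate 1 or 3-month replicate 3, 1 without 1-month replicate 2, 2 without 3-month replicate 2 and 7 without 3-month replicate 1, where 1.16% to 15.8% of all genes fell. The members' median was -0.17 without 1-month replicate 2. The rise of Cmpk2 was called without 3-month replicate 1 and lost without any other library (adjusted p up to 0.101). Of 16 microglia and macrophage markers 13 fell, with sums of 2279 to 3350 CPM at 3 months, against 5814 to 7908 CPM at 1 month, and 1-month replicate 2 was highest for these and for the members. The 3-month replicate 1 that was high for Oas3 held neutrophil markers at 2406 CPM in sum, against 254 and 263 CPM in the other 3-month libraries. The part of these cells in the members' values was not tested. Over all genes tested in tissue, 8.01% fell and 6.69% rose. Of 83 other pathway genes tested there, 14 fell and 1 rose, among the falls Lgals3bp (-1.25 ± 0.15), Tlr7 (-1.03 ± 0.13) and the receptor genes Ifnar2 (-0.51 ± 0.13) and Ifngr1 (-0.51 ± 0.11).

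The cultures, although labelled astrocyte, held high levels of fibroblast and mural markers. In the Zeb2os experiment these summed to 10230 to 12390 CPM, against 681 to 1406 CPM for astrocyte markers. In the Zeb2 experiment the sums were 5338 to 14900 CPM and 901 to 1407 CPM in the same order. The share of each cell type was not measured. Of the genes in these cultures, the targeted ones were looked at first. Zeb2 was at 23.2 and 16.1 CPM in the Zeb2 knockdown, against 147 and 134 CPM in its control, a log2 fold change of -2.83 ± 0.33 that was not called when adjusted over all genes (adjusted p = 0.999, unadjusted p = 1.5e-04). Counts assigned to Zeb2os were 3.13 and 4.32 CPM in the libraries labelled Zeb2os knockdown, against 5.82 and 3.802 CPM in their control (-0.36 ± 0.35, adjusted p = 0.735). These values overlapped, so a fall of Zeb2os was not seen in the libraries labelled Zeb2os knockdown, and each direction given for them rests on that label. Exons of Zeb2os and Zeb2 overlap on opposite strands, and the strand setting of the counting is not given in the sources used here.

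All 33 members had lower mean values in the libraries labelled Zeb2os knockdown than in their control. Their median log2 fold change was -0.96, against -0.01 over all genes tested, and the members ranged from -1.69 to -0.21. Both knockdown libraries lay below both controls in 30 of 33 members, against 23.4% of all genes, with Bst2, Ifi35 and Mx1 the exceptions. The sign of Bst2 and Ifi35 turned without control replicate 1 (log2 fold changes 0.03 and 0.18), and that of Mx1 without control replicate 2 (0.17). Their summed level was 1542 and 1448 CPM in the libraries labelled Zeb2os knockdown, against 2919 and 2432 CPM in control. Few of these differences passed the test. In edgeR 3 of 33 fell (9.09%), where 0.0675% of all 20741 tested genes, 14 in number, did. None rose (0 at an unadjusted p under 0.05, 0 by DESeq2), where 0.121% of all genes did. Without adjustment 27 members, the 3 included, were lower at p under 0.05, where 6.72% of all genes were. DESeq2 called 20 lower, where it called 2.02% of the genes it adjusted.

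The 3 that fell were Ddx60, Ifi44 and Ifit3b. The helicase gene Ddx60 was at 6.36 and 5.56 CPM in the libraries labelled Zeb2os knockdown, against 16.7 and 21.7 CPM in control (-1.69 ± 0.25, adjusted p = 0.0433). Ifi44, an interferon-induced gene, was at 26.9 and 27.5 CPM, against 78.5 and 86.6 CPM in control (-1.60 ± 0.20, adjusted p = 0.0246). Ifit3b was at 25.6 and 17.9 CPM, against 67.1 and 65.2 CPM in control (-1.60 ± 0.23, adjusted p = 0.0407). In each the knockdown libraries lay below both controls by more than the spread within either group. The promoter windows of Ddx60 and Ifit3b printed above each hold 2 matches to the response element core, and that of Ifi44 holds none. All 3 calls were lost without either knockdown library (adjusted p up to 0.192), when 0 members were called (0.00437% and 0.137% of all genes lower). Without control replicates 1 and 2, 24 and 25 members were called, where 9.33% and 1.91% of all genes were lower. With 1 library left in a group, these fits take the spread from the 2 libraries of the other group and assume that the lone library varies like them.

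Apart from Ddx60, the sensors and factors had lower values without being called. Zbp1 was at 5.01 and 4.94 CPM in the libraries labelled Zeb2os knockdown, against 15.3 and 12.9 CPM in control (-1.50 ± 0.26, adjusted p = 0.0648). Ifih1 was at 26.2 and 25.2 CPM, against 42.1 and 47.03 CPM in control, and Ddx58 at 71.4 and 67.1 CPM, against 98.4 and 126 CPM in control. None of these ranges overlapped. Dhx58 was at 10.97 and 9.17 CPM, against 20.1 and 18.5 CPM in control (-0.94 ± 0.23, adjusted p = 0.161). Irf7 was at 29.99 and 31.1 CPM, against 75.05 and 64.2 CPM in control (-1.19 ± 0.20, adjusted p = 0.0662). Stat2 was at 59.8 and 51.1 CPM, against 83.1 and 101 CPM in control (-0.73 ± 0.21), and Irf9 at 54.05 and 55.9 CPM, against 84.3 and 75.8 CPM in control (-0.54 ± 0.20). For each of these genes both libraries labelled Zeb2os knockdown lay below both controls.

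Isg15 and Bst2 had the highest levels per exonic length in these cultures, and neither was called. Isg15 was at 150 and 114 CPM in the libraries labelled Zeb2os knockdown, against 328 and 186 CPM in control (-0.96 ± 0.30, adjusted p = 0.25). Usp18 was at 51.6 and 65.1 CPM, against 114 and 90.3 CPM in control (-0.81 ± 0.23), and Herc6 at 20.2 and 20.7 CPM, against 39.8 and 44.97 CPM in control (-1.05 ± 0.20). Per exonic kilobase the first 4 members were the same in both groups, with Bst2 at 280 CPM per kb in the libraries labelled Zeb2os knockdown and 403 in control, Isg15 at 175 and 340, Ifit3 at 72.7 and 176, and Ifit1 at 50.3 and 80.6. Bst2 itself overlapped, at 261 and 245 CPM in the libraries labelled Zeb2os knockdown, against 478 and 249 CPM in control. Control replicate 1 was the higher control for Bst2, Isg15 and Ifit1. Of the remaining effectors, Oasl2 (-1.19 ± 0.20, adjusted p = 0.0662), Rsad2 (-1.30 ± 0.23, adjusted p = 0.0731) and Ifit3 (-1.28 ± 0.24, adjusted p = 0.0883) came nearest to the threshold, while Ifit2 (-0.28 ± 0.20) and Ifi35 (-0.21 ± 0.26) had the smallest differences.

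Of 85 other pathway genes tested, 1 was called, and it fell. Over all genes, 0.0675% fell and 0.121% rose. Cxcl10 was at 5.94 and 7.79 CPM in the libraries labelled Zeb2os knockdown, against 27.7 and 22.2 CPM in control (-1.86 ± 0.25, adjusted p = 0.0306). The receptor genes Ifnar1 (0.23 ± 0.22) and Ifnar2 (0.05 ± 0.20) were not called. Summed microglia and macrophage markers were 417 and 538 CPM in the libraries labelled Zeb2os knockdown, against 517 and 385 CPM in control, so these ranges overlapped. Endothelial markers summed to 164 and 159 CPM in the libraries labelled Zeb2os knockdown, against 83.7 and 109 CPM in control. Fibroblast and mural markers summed to 12390 and 12310 CPM, against 10640 and 10230 CPM in control, and neither of these lists overlapped. The part of these cells in the members' values was not tested. Astrocyte markers summed to 702 and 681 CPM in the libraries labelled Zeb2os knockdown, against 1324 and 1406 CPM in control, with 1 of 12 called lower, and their part in the members' values was not tested. Plasmacytoid dendritic cell markers, from cells that make much interferon, summed to 0 and 0.124 CPM in the libraries labelled Zeb2os knockdown, against 0 and 0.405 CPM in control.

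**Figure D5:**
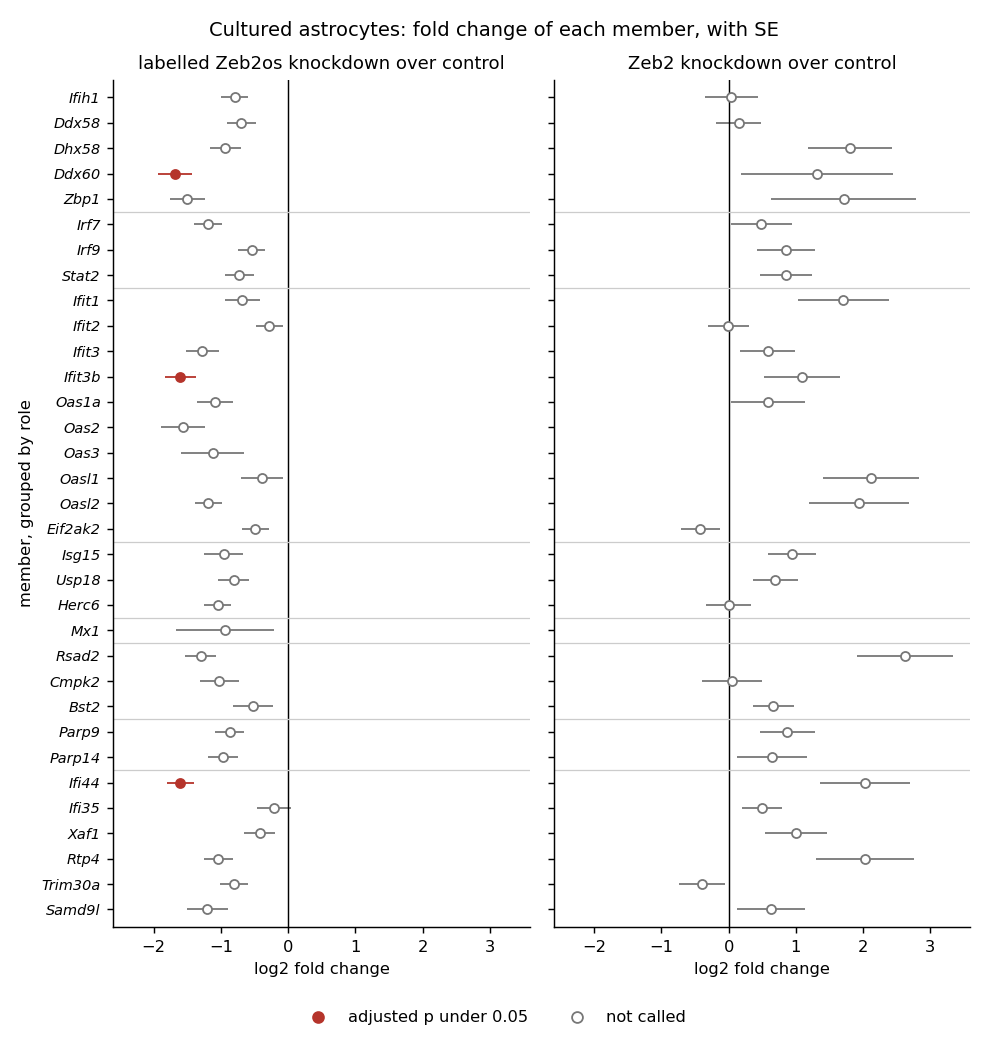
Log2 fold change of each member, with its standard error, in the libraries labelled Zeb2os knockdown over control (left) and in the Zeb2 knockdown over control (right), 2 libraries a group. Filled red points passed an adjusted p of 0.05, all 33 points on the left lie below 0, and 26 of the 30 on the right, where Mx1, Oas2 and Oas3 were not tested, lie above 0.

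In the Zeb2 knockdown no member passed the test, and 1 of the 2 knockdown libraries was high for many of them. Of the 30 members tested, edgeR called 0 higher and 0 lower (8 higher and 0 lower at an unadjusted p under 0.05, against 1.55% of all genes higher, and 1 of the 33 that DESeq2 adjusted higher, against 0.102%), and 0% of all 17609 genes were called in either direction. The members' median log2 fold change was 0.77, against 0.03 over all genes, and 26 of 30 values were positive. In 18 of 30 members both knockdown libraries lay above both controls, against 15.3% of all genes. The summed level was 738 and 449 CPM in the knockdown, against 429 and 376 CPM in control. The next 4 members are given for their values, which were seen before the choice. Rsad2 was at 12.7 and 3.39 CPM in the knockdown, against 1.11 and 1.49 CPM in control (2.63 ± 0.71, adjusted p = 0.999). Oasl2 was at 44.9 and 8.67 CPM in the knockdown, against 7.24 and 6.75 CPM in control (1.94 ± 0.75, adjusted p = 0.999). Ifi44 was at 15.02 and 4.94 CPM, against 1.69 and 3.21 CPM in control, and Rtp4 at 22.5 and 4.902 CPM, against 3.398 and 3.33 CPM in control. In each, knockdown replicate 1 stood far above the other 3 libraries. Over the members tested the median was 0.31 without knockdown replicate 1, with 0 calls (0.00539% of all genes higher), and 1.19 without knockdown replicate 2, with 7 calls (1.51% of all genes higher). In both fits the spread comes from the 2 controls, and the lone knockdown library is assumed to vary like them. Of the 30 members, 10 changed sign when single libraries were left out, among them Zbp1, at -0.53 without knockdown replicate 1.

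Isg15, Usp18 and Herc6 were more even between the knockdown libraries. Isg15 was at 10.4 and 10.9 CPM in the Zeb2 knockdown, against 4.89 and 6.196 CPM in control, and Usp18 at 11.1 and 12.3 CPM, against 7.203 and 7.26 CPM in control, with both knockdown libraries close to each other (0.94 ± 0.36 and 0.69 ± 0.34, not called). Herc6 was at 9.897 and 11.7 CPM, against 10.5 and 11.02 CPM in control. Irf7 was at 11.5 and 5.72 CPM, against 6.57 and 5.72 CPM in control, Irf9 at 38.2 and 17.6 CPM, against 15.2 and 15.7 CPM in control, and Stat2 at 30.8 and 17.4 CPM, against 14.3 and 12.2 CPM in control. For all 3 factors replicate 1 was the higher knockdown library. Of the sensors, Dhx58 was at 3.57 and 1.61 CPM, against 0.683 and 0.797 CPM in control, and Zbp1 at 4.09 and 0.480 CPM, against 1.02 and 0.368 CPM in control. The sensor genes Ifih1 and Ddx58 had log2 fold changes of 0.04 ± 0.40 and 0.15 ± 0.34. Values below 0 were those of Eif2ak2 (-0.42 ± 0.29), Trim30a (-0.40 ± 0.34), Ifit2 (-0.01 ± 0.31) and Herc6 (-0.00 ± 0.33). Microglia and macrophage markers summed to 224 and 104 CPM in the knockdown, against 230 and 63.0 CPM in control, and fibroblast and mural markers to 5338 and 6837 CPM, against 14900 and 7996 CPM in control. Neuron markers summed to 359 and 334 CPM in the knockdown, against 191 and 187 CPM in control, and ependymal markers to 66.8 and 70.4 CPM, against 35.4 and 42.6 CPM in control, without overlap in either. Endothelial markers summed to 94.9 and 194.6 CPM in the knockdown, against 206.7 and 261.2 CPM in control. Oligodendrocyte precursor markers summed to 478.8 and 577.7 CPM, against 631.5 and 631.1 CPM in control, and these lists did not overlap either. The part of any of these cells in the members' values was not tested.

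The knockdown effects of the Zeb2os and Zeb2 sets were compared in 1 fit over the 8 cultures. For all 33 members the effect in the libraries labelled Zeb2os knockdown was lower than the Zeb2 knockdown effect, with a median difference of -1.71 on the log2 scale, against -0.08 over all 20685 genes tested. edgeR called 0 members different (0 higher and 25 lower at an unadjusted p under 0.05, against 4.28% of all genes lower, and 10 lower by DESeq2, against 0.535%), and 0% of all genes were called. For the members called against their control in the Zeb2os experiment, the differences were -3.68 ± 0.69 for Ifi44 (adjusted p = 0.396), -3.06 ± 1.11 for Ddx60 (adjusted p = 0.6) and -2.73 ± 0.62 for Ifit3b (adjusted p = 0.414), and that of Isg15 was -1.93 ± 0.43 (adjusted p = 0.414). Without Zeb2 knockdown replicate 2 edgeR called 23 members lower, where 3.53% of all genes were, without Zeb2 knockdown replicate 1 it called 2, where 0.0963% were, and the median difference was -1.13 without Zeb2 knockdown replicate 1. The differences of Mx1, Eif2ak2 and Oas2 changed sign when single libraries were left out, and the lone library of a group is then assumed to vary like the others in the fit. The sets also differ in when selection began, so virus, schedule and set cannot be told apart.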

How the data were processed

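The mm10 build, DESeq2, Cufflinks 2.2.1, TopHat2 2.1.0 and FastQC are named in the submitters' processing notes, which do not say what each did. The authors deposited 4 tables of whole-number read counts per gene, not normalised, for sorted cells, tissue and each culture experiment. The counting program, annotation and strand setting are not given in the sources used here, so genes with exons on both strands and near-identical copies are uncertain. Each table was fitted alone with edgeR 4.0.16 in R 4.3.3 (filterByExpr at a minimum count of 10, TMM scaling, quasi-likelihood F test, Benjamini-Hochberg adjustment over all genes tested, threshold 0.05), and the 4 sorted groups shared 1 fit. The 8 cultures were also fitted together to compare the knockdown effects. CPM used the TMM-scaled totals, and lengths per gene were unions of GENCODE vM21 exons (GRCm38). The fits were tested on simulated data. Alternatives were DESeq2 1.42.0, no filter, the replicate number as a block, the 2 groups alone and leaving out each library. The rule for named genes allowed all members, with values in every library for those called, up to 10 by size of change, and for sensors, transcription factors and ISG15 genes. Of the other pathway genes it allowed interferon genes, receptors and up to 6 others called in a comparison, and of each marker list the 2 most abundant genes. Genes outside it are given as chosen after their values were seen. Members and lists were chosen with earlier results of these data known. Some genes of the wider pathway are not reported here.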

Additional observations from a re-analysis of the deposited data

Results flagged for a closer look

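In 7 members every 3-month library lay above every 1-month library in sorted cells, while every 3-month library lay below every 1-month library in whole injured cord. That is 21.2% of the 33 members, against 6.38% of the 19071 genes tested in both tables. The reverse pattern was seen in 0 members and 5.05% of genes. None of the 7 was called in sorted cells at 3 months against 1 month. The difference between the tables was not tested, since sorted cells and tissue were counted and scaled in separate tables. For Bst2 the log2 fold change of 3 months over 1 month was 1.10 in sorted cells and -0.94 in tissue. Ifit1 had 1.07 in sorted cells and -0.66 in tissue, Ifit3 had 0.75 and -0.53, and Ifit3b had 0.83 and -0.58. For Isg15 the values were 1.28 in sorted cells and -0.39 in tissue, for Mx1 1.77 and -0.55, and for Xaf1 1.18 and -0.34. The tissue value of Bst2, Ifit1, Ifit3 and Ifit3b passed the test, and that of the other 3 did not. Summed microglia and macrophage markers had the same pattern, at 10790 and 14300 CPM in sorted 3-month libraries against 4268 to 6721 CPM in sorted 1-month libraries, and at 2279 to 3350 CPM in 3-month tissue against 5814 to 7908 CPM in 1-month tissue. Their part in the pattern was not tested.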

How the results depend on the processing

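No alternative reversed the direction of a member called or of a median over the members. Members that were not called did turn sign when single libraries were left out: 5, 8 and 2 of 33 at 7 days, 1 month and 3 months against sham, 3 of 33 in tissue, 3 of 33 in the libraries labelled Zeb2os knockdown, 10 of 30 in the Zeb2 knockdown and 3 of 33 for the difference between knockdown effects. The counts that follow are of members alone. The settings can also change how many of all genes are called, and those shares are given above only for some settings. A larger or smaller count of members is therefore not a result about the members. At 7 days against sham the 7 rises became 13 by DESeq2, 12 with no filter and 5 to 11 when single libraries were left out. The 5 at 1 month became 9 with no filter, 1 with the 2 groups alone and 1 to 8 without single libraries. At 3 months the 12 became 19 by DESeq2, 4 with the 2 groups alone and 4 to 15 without single libraries. Between injured times, where edgeR called 0, 1 month against 7 days had 1 fall by DESeq2 and 3 with the 2 groups alone. For 3 months against 7 days there were 1 rise by DESeq2, 4 with no filter and 5 with the 2 groups alone, and for 3 months against 1 month 3 with no filter and 5 with the 2 groups alone. In tissue the 4 falls became 7 by DESeq2 and 0 to 7 without single libraries, and the 1 rise became 0 to 1. In the libraries labelled Zeb2os knockdown the 3 falls became 20 by DESeq2, 21 with no filter and 0 to 25 without single libraries. The 0 rises in the Zeb2 knockdown became 1 by DESeq2, 5 with no filter and 0 to 7 without single libraries, and the 0 differences between knockdown effects became 10, 18 and 0 to 23. In sorted cells and tissue same-numbered libraries did not deviate together (correlations of -0.0436 to 0.0809 and -0.2745 to -0.0111), so the numbers are not taken to pair them. In the cultures the correlation was 0.3904 in the Zeb2 and -0.0261 in the Zeb2os experiment. With too few pairs there, it is not known whether the numbers pair the cultures, which were fitted as unpaired. With the replicate number as a block the calls were 8, 6 and 10 rises at 7 days, 1 month and 3 months, 0 rises and 0 falls in tissue, 18 falls in the libraries labelled Zeb2os knockdown, 1 rise in the Zeb2 knockdown and 1 difference between knockdown effects. Where leaving out a library leaves 1 in a group, that library is assumed to vary like the others in the fit. The causes were not tested. Depth was above 15 M counts in every library but differed between the groups in tissue and cultures, and between sham and 1 month in sorted cells. With 2 or 3 libraries a group the spread between libraries limits the tests.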

Other observations

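The control cultures of the 2 experiments differed in the level of the members. Summed over the 33 members the controls of the Zeb2os experiment held 2919 and 2432 CPM and those of the Zeb2 experiment 429 and 376 CPM. Isg15 was at 328 and 186 CPM in the first pair and 4.89 and 6.20 CPM in the second, and Ifi44 at 78.5 and 86.6 CPM and 1.69 and 3.21 CPM. For Bst2 the values were 478 and 249 CPM and 36.6 and 41.9 CPM. The libraries labelled Zeb2os knockdown, at 1542 and 1448 CPM in sum, were thus above both Zeb2 controls. The tables were scaled separately and the difference was not tested. Virus, selection schedule and sequencing cannot be told apart here.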
